A study of Mus musculus with 14 samples.

Results

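The 10 genes described here encode transcription factors that shape effector CD8+ T cells: Tbx21, Eomes, Irf4, Irf8, Batf, Id2, Runx3, Zeb2, Bhlhe40 and Maf. They were chosen by name for this role, with earlier results of these data known. All 10 had a row among the 10106 genes of the table, and all 10 were among the 9793 genes tested, which had a mean of at least 1 RPKM (reads per kilobase of transcript, scaled to the reads of the library).

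Naive CD8+ T cells that meet antigen leave rest, divide and acquire effector functions, and a set of transcription factors sets how far each cell goes. T cell receptor signals induce IRF4 and BATF, which bind DNA together with JUN proteins and open effector genes, and IRF4 is known to scale with the strength of the receptor signal in mouse T cells. T-bet (Tbx21), the E protein inhibitor Id2, Runx3 and Zeb2 then favour effector fates, the T-box factor eomesodermin (Eomes) acts in both effector and memory cells, and Bhlhe40 and Maf are linked to cytokine output and to chronic stimulation.

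The cells were OT-I CD8+ T cells, whose transgenic receptor recognises the ovalbumin peptide SIINFEKL. They were labelled with CFSE, transferred on day 0 into C57BL/6 recipients that carry CD45.2, and sorted from the spleen on day 4 by CD3e, CD8 and CD45.1. Antigen was injected into a vein on day 1, at 223 pmol for every form. In ERY1-OVA (3 libraries) the whole protein carries ERY1, a peptide that binds erythrocytes, and TER119-SIINFEKL (3 libraries) is the peptide joined to TER119, which binds mouse erythrocytes. OVA (3 libraries) is free ovalbumin and SIINFEKL (2 libraries) is the free peptide. Cells of the Naive group (3 libraries) had been transferred in the same way, and their recipients were given saline alone. The animals were 8 to 12 weeks old, and every group shared the OT-I donor cells, the recipient strain and the sort. The labels do not say whether the replicates of a group were separate mice, so the p-values measure the spread between these samples, which may be technical. Levels are bulk values over all sorted cells, so fewer cells expressing a gene and less RNA per cell cannot be told apart.

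CD8+ T cell transcripts were abundant in every library: Cd8a, Cd8b1, Cd3d, Cd3e, Cd3g, Cd2, Thy1 and Lck summed to 3360 to 3560 RPKM after ERY1-OVA, 2800 to 3630 RPKM after TER119-SIINFEKL, 3110 to 3480 RPKM after OVA, 3770 to 3940 RPKM after SIINFEKL and 3940 to 4440 RPKM in Naive cells. TER119-SIINFEKL replicate 1 and OVA replicate 1 stood apart from their groups in 4 MHC class II genes, which summed to 34.6 RPKM and 68.3 RPKM there. The lowest libraries of the same groups had 10.4 RPKM after TER119-SIINFEKL and 11.4 RPKM after OVA. The sum was 6.37 to 10.8 RPKM after ERY1-OVA, 11.5 to 12.9 after SIINFEKL and 12.7 to 26.5 in Naive cells. The pair of SIINFEKL libraries differed from each other in several genes described here, among them Eomes and Maf. Values without 1 of these libraries are given beside results that lost a call or that rest most on them. Depth per library is unknown, because the table gives no counts, and the fold change of a gene near 0 RPKM depends on a prior count that the sources used here do not state.

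Set against Naive cells, the 10 factors split into genes that were higher and genes that were lower. A gene was called when its Benjamini-Hochberg adjusted p from limma was under 0.05 over the 9793 genes tested. After ERY1-OVA 5 of the 10 were called, 3 higher (Irf4, Irf8, Batf) and 2 lower (Id2, Zeb2), where 39.9% of all tested genes were called (20.9% higher and 19.0% lower). After TER119-SIINFEKL 6 of the 10 were called, the same 3 higher and Id2, Runx3 and Zeb2 lower, beside 47.6% of all genes (24.6% higher and 23.0% lower). After OVA 4 of the 10 were called, all higher (Tbx21, Irf4, Irf8, Batf), beside 47.6% of all genes, of which 24.4% were higher and 23.1% lower. After SIINFEKL 4 of the 10 were called, Irf4 and Batf higher and Id2 and Zeb2 lower, beside 15.9% of all genes (7.58% higher and 8.34% lower).

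These 4 comparisons share the Naive libraries. In the pairwise comparisons, the values of called factors did not overlap between the groups compared. The share of all genes without overlap, called or not, was not computed. A lack of overlap therefore adds no support to the calls, or to the uncalled factors described below. The shares called were near those of all genes for the 3 groups other than SIINFEKL, while the median size of the log2 change was larger for the 10 factors: 1.09 against 0.34 over all genes after ERY1-OVA, 1.00 against 0.39 after TER119-SIINFEKL, 1.00 against 0.39 after OVA and 0.68 against 0.25 after SIINFEKL. The factors were chosen with earlier results of these data known, so this contrast is not a test of them. Their pooled SD within groups, from 0.21 log2 units for Runx3 to 1.00 for Bhlhe40, was also above the median gene's 0.20. The count after OVA was 8 when only the groups compared were fitted, and 7 without SIINFEKL replicate 1 or replicate 2, because Eomes, Zeb2 and Maf then passed as well (and Id2 in the fit of only the groups compared). The count after SIINFEKL was 2 without SIINFEKL replicate 1. Leaving out a SIINFEKL library leaves 1, whose spread was then taken from the other groups.

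**Figure D1:**
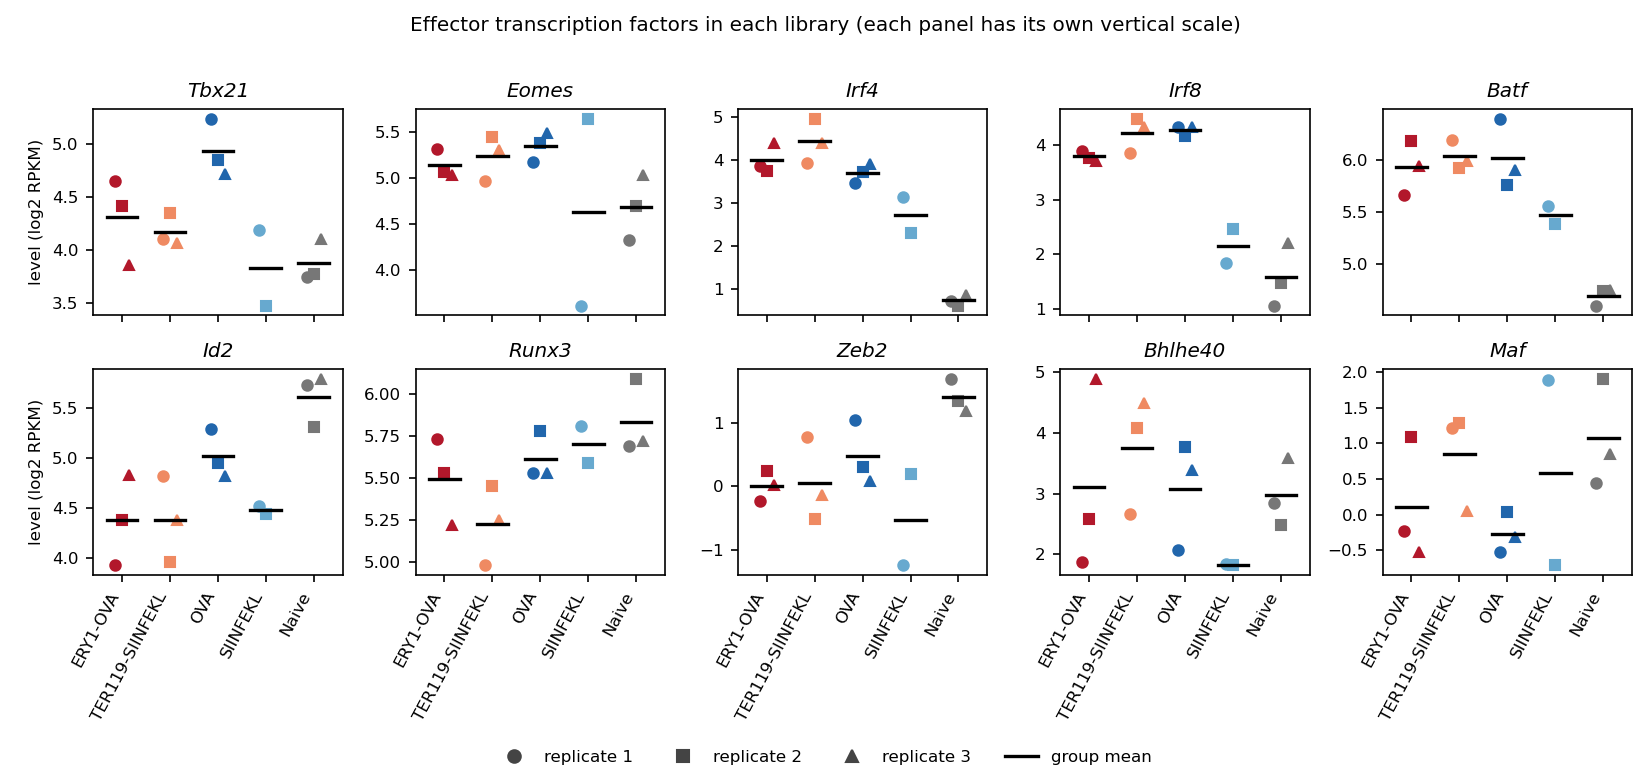
Level of each of the 10 factors in every library, in log2 RPKM with a vertical scale of its own in each panel, 1 point per library and the mean of the log2 values as a bar, for ERY1-OVA, TER119-SIINFEKL, OVA, SIINFEKL and Naive cells. Irf4, Irf8 and Batf lay above Naive in every library given ERY1-OVA, TER119-SIINFEKL or OVA, and Id2 and Zeb2 lay below it there.

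**Figure D2:**
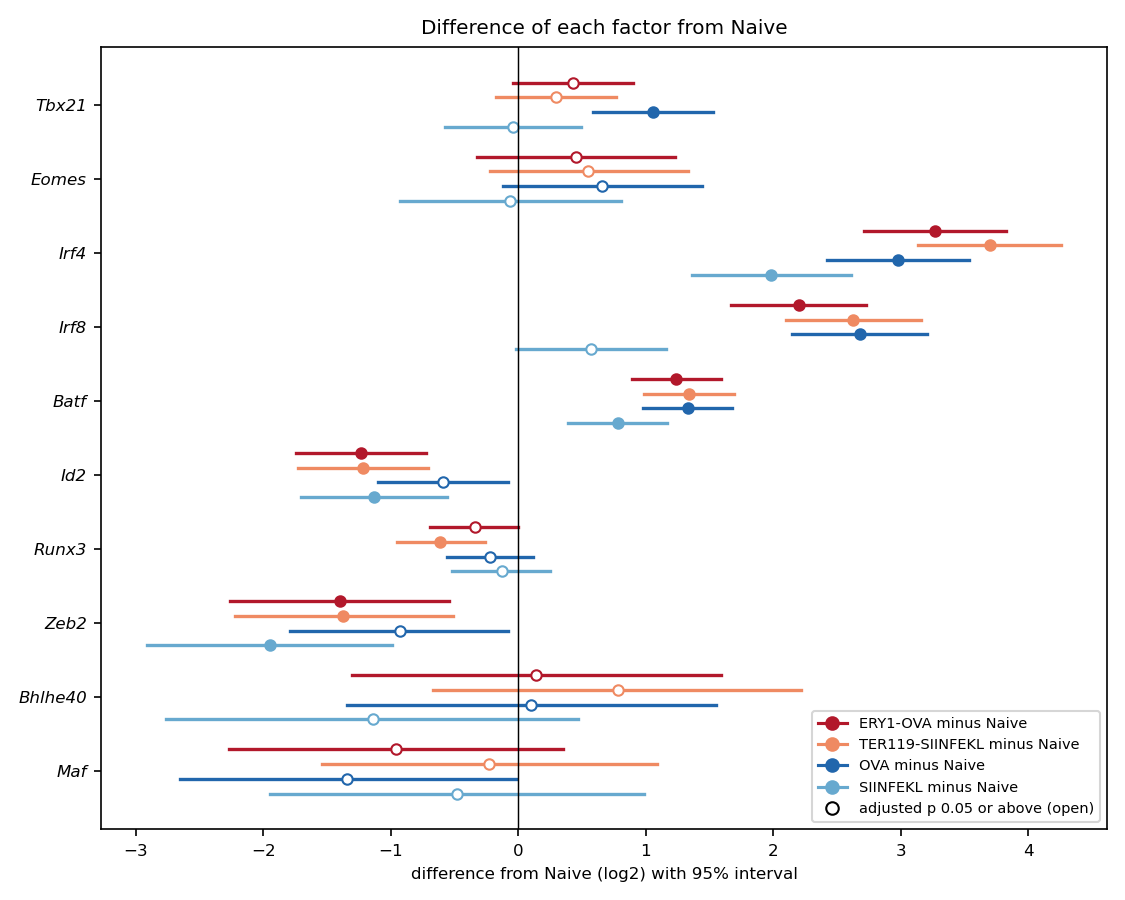
Log2 fold change from Naive of each factor in the 4 antigen groups, with bars for the 95% interval from limma, and filled points for called changes. Irf4 had the largest change in each group given erythrocyte-targeted antigen or OVA, at 3.27, 3.70 and 2.98.

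Irf4, Irf8 and Batf rose together after ERY1-OVA, TER119-SIINFEKL and OVA, so the DNA before their start sites is shown to let their promoters be compared. The windows are from RefSeq (GRCm38.p6), run from 250 bases before to 50 after an annotated start, and read 5′ to 3′ on the gene's strand. Capitals mark a match to any of 6 motifs searched on both strands: TGANTCA (AP-1), GAAA repeated after any 2 bases (IRF), TCACACCT (T-box), TGTGGTT (RUNX), CACGTG (E-box) and CACCTG (the E-box that ZEB proteins bind). No matches overlapped. The Irf4 window is chr13:30748983-30749282 on the plus strand, the first of 2 Irf8 windows is chr8:120736108-120736407 on the plus strand, and the Batf window is chr12:85686470-85686769 on the plus strand.
Irf4: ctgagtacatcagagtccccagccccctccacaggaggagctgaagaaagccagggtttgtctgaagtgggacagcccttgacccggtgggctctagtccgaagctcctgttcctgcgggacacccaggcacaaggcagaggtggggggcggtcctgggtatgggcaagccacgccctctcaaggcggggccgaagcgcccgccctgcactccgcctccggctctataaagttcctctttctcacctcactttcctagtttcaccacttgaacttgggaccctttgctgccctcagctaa
Irf8: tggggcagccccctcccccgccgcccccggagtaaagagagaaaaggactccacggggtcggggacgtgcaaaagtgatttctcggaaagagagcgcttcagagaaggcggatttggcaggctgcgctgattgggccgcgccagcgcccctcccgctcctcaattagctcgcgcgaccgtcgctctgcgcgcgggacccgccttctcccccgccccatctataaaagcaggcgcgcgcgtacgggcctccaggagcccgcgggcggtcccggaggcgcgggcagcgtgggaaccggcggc
Batf: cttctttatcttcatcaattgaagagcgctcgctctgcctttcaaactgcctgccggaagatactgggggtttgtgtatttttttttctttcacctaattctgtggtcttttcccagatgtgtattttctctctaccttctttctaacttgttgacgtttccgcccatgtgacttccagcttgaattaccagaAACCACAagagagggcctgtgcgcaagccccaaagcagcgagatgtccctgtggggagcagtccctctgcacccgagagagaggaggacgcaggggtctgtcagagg

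The Batf window held a RUNX match on its minus strand, whose first base lay at position -57 from the start site. The Irf4 window and the first Irf8 window held none of the 6 motifs, which says only that these letters are not in these windows, and the second Irf8 window held CAGGTG at position -205. Of the 10 genes, 8 had a window in the table (Bhlhe40 and Maf had none), with 13 windows in all. A match was present in 6 of these 13 windows. Besides Batf and the second Irf8 window, these were the Tbx21 window (CAGGTG at -196), the Eomes window (the IRF motif at -154), a Runx3 window (AACCACA, the minus-strand form of the RUNX motif, at -135 and -127, and CAGGTG at -233) and a Zeb2 window that is shown further on. Over all mouse windows in the table, 38.0% held at least 1 of the motifs: 7.81% held AP-1, 3.44% IRF, 1.28% T-box, 5.27% RUNX, 7.15% CACGTG and 20.2% CACCTG.

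Irf4 (chr13:30749226-30766976, plus strand), which encodes interferon regulatory factor 4, showed the widest change of the 10. It had 14.4, 13.5 and 20.9 RPKM after ERY1-OVA, 15.3, 31.0 and 21.2 RPKM after TER119-SIINFEKL, 11.1, 13.3 and 15.1 RPKM after OVA, 8.76 and 4.91 RPKM after SIINFEKL, and 1.64, 1.53 and 1.82 RPKM in Naive cells. All antigen libraries lay above all Naive libraries, and both SIINFEKL libraries lay below every library of the other antigen groups. ERY1-OVA overlapped both TER119-SIINFEKL and OVA, and every TER119-SIINFEKL library was above every OVA library. By level Irf4 was at the 64.6th percentile of the tested genes after TER119-SIINFEKL and at the 5.5th percentile in Naive cells.

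Against Naive, Irf4 rose 9.62-fold after ERY1-OVA (log2 3.27 ± 0.26, SE, adjusted p = 1.3e-06), 13.0-fold after TER119-SIINFEKL (3.70 ± 0.26, adjusted p = 4.5e-07), 7.86-fold after OVA and 3.95-fold after SIINFEKL (1.98 ± 0.29, adjusted p = 0.00078). The SIINFEKL value was 1.57 without SIINFEKL replicate 1 (adjusted p = 0.016), and it was larger and still called without replicate 2 (adjusted p = 0.00016). Mean levels were 16.3 ± 4.04 RPKM after ERY1-OVA, 22.5 ± 7.94 after TER119-SIINFEKL, 13.2 ± 1.99 after OVA, 6.84 ± 2.72 after SIINFEKL and 1.66 ± 0.146 in Naive cells (SD, n = 2 for SIINFEKL and 3 for the others, as in all means given here). From high to low the order was TER119-SIINFEKL, ERY1-OVA, OVA, SIINFEKL and Naive. TER119-SIINFEKL and ERY1-OVA overlapped, as did ERY1-OVA and OVA, whereas OVA, SIINFEKL and Naive did not overlap one another.

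Irf8 (chr8:120736358-120756694, plus strand) encodes a related factor that is best known from myeloid and B cells and that also takes part in effector differentiation of mouse CD8+ T cells. It had 14.8, 13.5 and 13.1 RPKM after ERY1-OVA, 14.4, 22.2 and 19.9 RPKM after TER119-SIINFEKL, 20.0, 17.8 and 20.0 RPKM after OVA, 3.59 and 5.52 RPKM after SIINFEKL, and 2.11, 2.78 and 4.60 RPKM in Naive cells. The SIINFEKL libraries overlapped Naive, and the other 3 antigen groups lay above both with no overlap. Against Naive, Irf8 rose 4.59-fold after ERY1-OVA (2.20 ± 0.25, adjusted p = 1.6e-05), 6.19-fold after TER119-SIINFEKL (2.63 ± 0.25, adjusted p = 2.8e-06) and 6.41-fold after OVA.

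After SIINFEKL the Irf8 difference from Naive was 0.57 ± 0.28 (95% interval -0.02 to 1.16, adjusted p = 0.18), and it was called without Naive replicate 3 (0.88, adjusted p = 0.034). Mean levels were 13.8 ± 0.904 RPKM after ERY1-OVA, 18.9 ± 4.00 after TER119-SIINFEKL, 19.3 ± 1.28 after OVA, 4.56 ± 1.36 after SIINFEKL and 3.16 ± 1.29 in Naive cells, with OVA highest, then TER119-SIINFEKL and ERY1-OVA. Of the neighbours in that order, OVA and TER119-SIINFEKL overlapped, TER119-SIINFEKL and ERY1-OVA overlapped, and SIINFEKL overlapped Naive. Of 10 B cell markers only Cd79b and Cd22 had a row in the table used here, and they summed to 17.6 to 22.5 RPKM after ERY1-OVA, 23.8 to 27.5 after TER119-SIINFEKL, 15.1 to 21.8 after OVA, 12.8 to 21.5 after SIINFEKL and 8.49 to 10.3 in Naive cells. Within that sum Cd22 lay between 3.57 and 12.4 RPKM in the antigen groups and between 0.317 and 0.435 RPKM in Naive cells, and its part in the Irf4 and Irf8 results was not tested.

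Batf (chr12:85686669-85709087, plus strand), the basic leucine zipper partner of IRF4, was abundant in every group. It had 51.1, 73.1 and 61.5 RPKM after ERY1-OVA, 73.4, 61.1 and 63.4 RPKM after TER119-SIINFEKL, 84.6, 54.1 and 60.0 RPKM after OVA, 47.3 and 42.0 RPKM after SIINFEKL, and 24.2, 26.8 and 26.9 RPKM in Naive cells. Every antigen library was above every Naive library, both SIINFEKL libraries were below every library of the other antigen groups, and these 3 groups overlapped. Batf rose 2.36-fold after ERY1-OVA (1.24 ± 0.16, adjusted p = 6.1e-05), 2.54-fold after TER119-SIINFEKL (1.34 ± 0.16, adjusted p = 2.2e-05), 2.51-fold after OVA (1.33 ± 0.16, adjusted p = 2.8e-05) and 1.72-fold after SIINFEKL (0.78 ± 0.18, adjusted p = 0.013). The last call was lost without SIINFEKL replicate 1 (0.70, adjusted p = 0.14). Mean levels were 61.9 ± 11.0 RPKM after ERY1-OVA, 66.0 ± 6.53 after TER119-SIINFEKL, 66.2 ± 16.2 after OVA, 44.6 ± 3.72 after SIINFEKL and 26.0 ± 1.53 in Naive cells.

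The balance of Irf4 and Irf8 within a library varied between the groups. The log2 level of Irf4 minus that of Irf8 was -0.04, 0.00 and 0.67 after ERY1-OVA, 0.08, 0.48 and 0.09 after TER119-SIINFEKL, -0.85, -0.42 and -0.41 after OVA, 1.29 and -0.17 after SIINFEKL, and -0.36, -0.86 and -1.34 in Naive cells. Irf4 was below Irf8 in all 3 OVA and all 3 Naive libraries. The ERY1-OVA and TER119-SIINFEKL libraries lay near equal levels or higher, and SIINFEKL replicate 1 had the most Irf4 relative to Irf8.

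Among the other IRF genes and the BATF partners, nearly all that were called were lower than in Naive cells. Of 18 such genes tested (among them IRF, JUN and FOS family members and Bach2), 1 was higher and 6 lower after ERY1-OVA, 0 higher and 9 lower after TER119-SIINFEKL, and 0 higher and 8 lower after OVA. Irf1, an activator of interferon-stimulated genes, fell by 0.61 ± 0.16 after ERY1-OVA (adjusted p = 0.0083) and by 1.06 ± 0.16 after TER119-SIINFEKL (adjusted p = 0.00013). Bach2, which in mouse T cells restrains effector genes at AP-1 sites, fell by 0.82 ± 0.20 after TER119-SIINFEKL (adjusted p = 0.0044) and by 1.03 ± 0.20 after OVA (adjusted p = 0.0011), or by 0.53 and 0.68 with a correction for gene length and GC content. Fosl2, a FOS family member, fell by 1.70 ± 0.46 after TER119-SIINFEKL (adjusted p = 0.0084). The list's median log2 change was -0.35 after ERY1-OVA, -0.53 after TER119-SIINFEKL and -0.60 after OVA, beside -0.01, 0.00 and -0.04 over all genes tested. Of all genes, 20.9% were called higher and 19.0% lower after ERY1-OVA, 24.6% and 23.0% after TER119-SIINFEKL, and 24.4% and 23.1% after OVA, and each list's counts are to be read against these shares. The count after ERY1-OVA was 1 without ERY1-OVA replicate 2 or Naive replicate 3 and 2 without Naive replicate 2. It was 4 with a correction for gene length and GC content or without ERY1-OVA replicate 1. The count after OVA was 5 without Naive replicate 3.

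Of 21 genes that carry the signals upstream of IRF4 and BATF, 1 was called higher and 8 lower after ERY1-OVA, 1 and 8 after TER119-SIINFEKL, and 2 and 6 after OVA. The list's median log2 change was -0.12, -0.26 and -0.25 in those groups, and the share called, 9 of 21 after ERY1-OVA, was near the 39.9% of all genes. Over the alternatives 0 to 4 were higher after ERY1-OVA, 0 to 4 after TER119-SIINFEKL and 1 to 3 after OVA. Malt1, a protease of the NF-kappaB branch of receptor signalling, fell by 0.83 ± 0.11 after ERY1-OVA, by 1.34 ± 0.11 after TER119-SIINFEKL and by 0.80 ± 0.11 after OVA. Ifngr1, a chain of the interferon gamma receptor, fell by 0.98 ± 0.15, 1.34 ± 0.15 and 0.91 ± 0.15 in those 3 groups. The count after OVA was 13 with quantile normalization.

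Of the T-box factors, Tbx21 was called after OVA and Eomes after no antigen group. Whether Tbx21 and Eomes differed in their change from Naive was not tested. Tbx21 (chr11:97098071-97115331, minus strand), which encodes T-bet, the driver of cytotoxic and interferon gamma genes, had 25.2, 21.4 and 14.5 RPKM after ERY1-OVA, 17.3, 20.4 and 16.8 RPKM after TER119-SIINFEKL, 37.9, 28.9 and 26.4 RPKM after OVA, 18.3 and 11.2 RPKM after SIINFEKL, and 13.4, 13.7 and 17.2 RPKM in Naive cells. All 3 OVA libraries lay above every other library, and the other 4 groups overlapped. Tbx21 rose 2.09-fold after OVA (1.06 ± 0.22, adjusted p = 0.0016), and by 0.91 without OVA replicate 1 (adjusted p = 0.0087). The differences from Naive were 0.43 ± 0.22 after ERY1-OVA (adjusted p = 0.13), 0.30 ± 0.22 after TER119-SIINFEKL (adjusted p = 0.28) and -0.04 ± 0.25 after SIINFEKL (adjusted p = 0.93). ERY1-OVA replicate 3 was the lowest of its group, and without it the ERY1-OVA difference was called (0.66, adjusted p = 0.031). Mean levels were 20.4 ± 5.43 RPKM after ERY1-OVA, 18.2 ± 1.93 after TER119-SIINFEKL, 31.1 ± 6.03 after OVA, 14.7 ± 5.02 after SIINFEKL and 14.8 ± 2.12 in Naive cells.

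Eomes (chr9:118478212-118486132, plus strand), which acts with T-bet in effector cells and supports memory, had 40.0, 33.5 and 32.8 RPKM after ERY1-OVA, 31.3, 43.6 and 39.7 RPKM after TER119-SIINFEKL, 36.3, 41.7 and 45.0 RPKM after OVA, 12.2 and 50.2 RPKM after SIINFEKL, and 20.0, 26.0 and 33.0 RPKM in Naive cells. The SIINFEKL libraries held both the lowest and the highest value of all 14. OVA lay above Naive with no overlap, and ERY1-OVA and TER119-SIINFEKL overlapped it. No antigen group was called: the differences were 0.45 ± 0.36 after ERY1-OVA, 0.55 ± 0.36 after TER119-SIINFEKL, 0.66 ± 0.36 after OVA (adjusted p = 0.15) and -0.06 ± 0.40 after SIINFEKL. Its spread within groups was a pooled SD of 0.53 log2 units, at the 96.5th percentile of all genes. Without SIINFEKL replicate 1 or replicate 2, Eomes was called after OVA (adjusted p = 0.0067 and 0.0068) and after TER119-SIINFEKL (adjusted p = 0.017 and 0.018), and without replicate 1 after ERY1-OVA (adjusted p = 0.05). In a fit of only the groups compared it was called after OVA (adjusted p = 0.0081) and after TER119-SIINFEKL (adjusted p = 0.032). Mean levels were 35.5 ± 3.97 RPKM after ERY1-OVA, 38.2 ± 6.27 after TER119-SIINFEKL, 41.0 ± 4.41 after OVA, 31.2 ± 26.9 after SIINFEKL and 26.3 ± 6.46 in Naive cells. Ranked by mean RPKM from high to low, as OVA, TER119-SIINFEKL, ERY1-OVA, SIINFEKL and Naive, each neighbour overlapped the next.

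**Figure D3:**
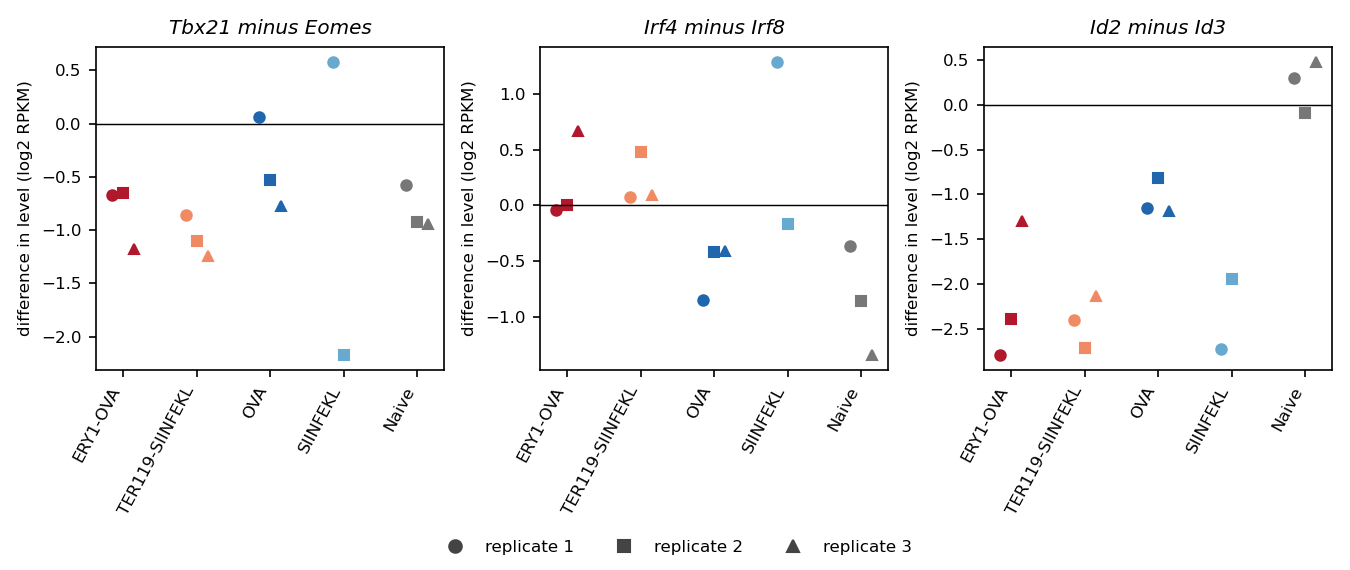
Log2 difference of 2 genes within each library, for Tbx21 minus Eomes, Irf4 minus Irf8 and Id2 minus Id3, by group, 1 point per library. The Id2 minus Id3 difference lay at or below -0.82 in every antigen library and between -0.09 and 0.48 in Naive cells.

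Within a library, Tbx21 minus Eomes was -0.67, -0.65 and -1.18 log2 units after ERY1-OVA, -0.86, -1.10 and -1.24 after TER119-SIINFEKL, 0.06, -0.53 and -0.77 after OVA, 0.58 and -2.17 after SIINFEKL, and -0.58, -0.92 and -0.94 in Naive cells. Tbx21 exceeded Eomes in OVA replicate 1 and SIINFEKL replicate 1, and SIINFEKL replicate 2 had the lowest ratio of all libraries.

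Known targets of the T-box factors did not move in 1 direction. Of 20 genes tested, a list that holds Tbx21 and Eomes themselves, 2 were higher and 7 lower after ERY1-OVA, 3 higher and 9 lower after TER119-SIINFEKL, and 6 higher and 1 lower after OVA, with medians of -0.13, -0.44 and 0.02. Prf1, which encodes the pore-forming protein perforin, fell by 1.05 ± 0.20 after ERY1-OVA (adjusted p = 0.0011), by 0.97 ± 0.20 after TER119-SIINFEKL (adjusted p = 0.0014) and by 0.94 ± 0.20 after OVA (adjusted p = 0.0018). The chemokine gene Ccl5 fell by 2.04 ± 0.53 after ERY1-OVA (adjusted p = 0.0083), while the chemokine genes Ccl4 and Ccl3 rose by 2.53 ± 0.38 and 2.66 ± 0.51 after TER119-SIINFEKL (adjusted p = 0.00012 and 0.00093). Cxcr3, a chemokine receptor of effector cells, rose by 1.41 ± 0.23 after OVA (adjusted p = 0.00033). Il12rb2, a chain of the interleukin-12 receptor, fell by 1.22 ± 0.33 after ERY1-OVA (adjusted p = 0.0093) and by 2.94 ± 0.36 after SIINFEKL (adjusted p = 0.00025), or by 1.79 after SIINFEKL with 1 RPKM added. The count after OVA was 14 in a fit of only the groups compared and 12 without OVA replicate 1 and TER119-SIINFEKL replicate 1.

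Id2 (chr12:25093799-25097140, minus strand) encodes a helix-loop-helix protein without a DNA-binding region, which holds E proteins away from DNA and favours effector cells. It was highest in Naive cells, with 15.3, 20.8 and 28.5 RPKM after ERY1-OVA, 28.2, 15.5 and 20.8 RPKM after TER119-SIINFEKL, 39.1, 30.9 and 28.2 RPKM after OVA, 22.9 and 21.7 RPKM after SIINFEKL, and 52.9, 39.8 and 55.2 RPKM in Naive cells. Every antigen library lay below every Naive library. Id2 fell by 1.23 ± 0.24 after ERY1-OVA (adjusted p = 0.0012), by 1.22 ± 0.24 after TER119-SIINFEKL (adjusted p = 0.00094) and by 1.13 ± 0.26 after SIINFEKL (adjusted p = 0.013). The SIINFEKL call was lost without SIINFEKL replicate 1 (-1.17, adjusted p = 0.083). The difference after OVA was -0.59 ± 0.24 (adjusted p = 0.054), and it passed the threshold in 11 of 25 alternatives, with values from -0.84 to -0.49. The mean levels were 21.5 ± 6.63 RPKM after ERY1-OVA, 21.5 ± 6.39 after TER119-SIINFEKL, 32.7 ± 5.69 after OVA, 22.3 ± 0.870 after SIINFEKL and 49.3 ± 8.31 in Naive cells. Naive, OVA and SIINFEKL did not overlap one another. ERY1-OVA and TER119-SIINFEKL overlapped SIINFEKL and each other, and ERY1-OVA also reached the lowest OVA library.

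Id3, the related E protein inhibitor of naive and memory cells, went the opposite way. It had 106, 109 and 70.1 RPKM after ERY1-OVA, 149, 102 and 91.1 RPKM after TER119-SIINFEKL, 86.5, 54.5 and 63.8 RPKM after OVA, 151 and 83.5 RPKM after SIINFEKL, and 42.9, 42.4 and 39.5 RPKM in Naive cells. Every antigen library lay above every Naive library. Id3 rose by 1.17 ± 0.25 after ERY1-OVA (adjusted p = 0.0023), by 1.42 ± 0.25 after TER119-SIINFEKL (adjusted p = 0.00042), by 0.69 ± 0.25 after OVA (adjusted p = 0.034, lost in 8 of 25 alternatives) and by 1.43 ± 0.28 after SIINFEKL (adjusted p = 0.0045, lost without SIINFEKL replicate 1).

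Id2 and Id3 were at about the same level in Naive cells and far apart after antigen. Id2 minus Id3 was -2.79, -2.39 and -1.30 log2 units after ERY1-OVA, -2.40, -2.71 and -2.13 after TER119-SIINFEKL, -1.15, -0.82 and -1.18 after OVA, -2.72 and -1.94 after SIINFEKL, and 0.30, -0.09 and 0.48 in Naive cells. The OVA libraries were the nearest to Naive, and each of the other antigen libraries lay below all of them. The E protein genes tested, Tcf3 and Tcf12, were called after none of ERY1-OVA, TER119-SIINFEKL, OVA and SIINFEKL.

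Runx3 (chr4:135120652-135177990, plus strand), which fixes the CD8 lineage and silences Cd4, was the steadiest of the 10. It had 53.0, 46.2 and 37.2 RPKM after ERY1-OVA, 31.5, 43.7 and 38.2 RPKM after TER119-SIINFEKL, 46.2, 55.0 and 46.2 RPKM after OVA, 56.3 and 48.1 RPKM after SIINFEKL, and 51.8, 68.1 and 52.7 RPKM in Naive cells. TER119-SIINFEKL lay below Naive and below SIINFEKL with no overlap, and the other antigen groups overlapped Naive. Runx3 fell by 0.61 ± 0.16 after TER119-SIINFEKL (adjusted p = 0.0070). The differences were -0.34 ± 0.16 after ERY1-OVA (adjusted p = 0.10), -0.22 ± 0.16 after OVA (adjusted p = 0.27) and -0.13 ± 0.18 after SIINFEKL (adjusted p = 0.65). The ERY1-OVA difference passed with quantile normalization and without ERY1-OVA replicate 1, at -0.46 in both. The mean levels were 45.4 ± 7.91 RPKM after ERY1-OVA, 37.8 ± 6.07 after TER119-SIINFEKL, 49.1 ± 5.12 after OVA, 52.2 ± 5.80 after SIINFEKL and 57.5 ± 9.19 in Naive cells. Ranked from low to high, as TER119-SIINFEKL, ERY1-OVA, OVA, SIINFEKL and Naive, each neighbour overlapped the next.

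Of 8 genes of the RUNX complex and lineage control, Runx3 among them, Satb1, a chromatin organiser of naive T cells, fell by 0.88 ± 0.14 after ERY1-OVA (adjusted p = 0.00031), by 1.33 ± 0.14 after TER119-SIINFEKL (adjusted p = 7.7e-06) and by 1.01 ± 0.14 after OVA (adjusted p = 8.5e-05). It was the 1 gene of this list called after ERY1-OVA and after OVA. Tox, a factor of persistently stimulated CD8+ T cells, rose by 0.80 ± 0.15 after TER119-SIINFEKL (adjusted p = 0.00093), where 1 gene of the list was higher and 2 were lower. Without ERY1-OVA replicate 1 the count after ERY1-OVA was 2.

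Zeb2 was the lowest of the 10 in level, at the 2.3rd percentile of tested genes over all libraries, and its 4 windows in the promoter table differ in what they hold. The window chr2:45110228-45110527 (GRCm38.p6, minus strand) is shown for its AP-1 matches, the site type that BATF and JUN proteins bind. No other window of the 8 genes that had windows held this motif. Of all mouse windows 7.81% held it, so its presence in this window among 13 is near that share. It lies inside the gene, whose 5′ end is at 45117395 on this strand. The Zeb2 window nearest that end (chr2:45117393-45117692) held none of the 6 motifs. Capitals mark the AP-1 matches, whose first bases lie at positions -189 and -132 from the annotated start of the window shown.
Zeb2: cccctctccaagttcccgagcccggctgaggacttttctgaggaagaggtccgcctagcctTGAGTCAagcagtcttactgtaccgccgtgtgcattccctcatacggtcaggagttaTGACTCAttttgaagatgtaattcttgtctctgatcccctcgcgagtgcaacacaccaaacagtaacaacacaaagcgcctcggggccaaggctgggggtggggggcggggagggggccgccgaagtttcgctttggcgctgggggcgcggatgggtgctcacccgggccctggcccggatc

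Zeb2 (chr2:44983632-45117395, minus strand), a zinc-finger repressor that acts with T-bet in terminal effector cells of mice, had 0.851, 1.18 and 1.02 RPKM after ERY1-OVA, 1.73, 0.702 and 0.916 RPKM after TER119-SIINFEKL, 2.09, 1.24 and 1.06 RPKM after OVA, 0.420 and 1.14 RPKM after SIINFEKL, and 3.27, 2.55 and 2.28 RPKM in Naive cells. Every antigen library lay below every Naive library. Mean levels were 1.02 ± 0.167 RPKM after ERY1-OVA, 1.12 ± 0.542 after TER119-SIINFEKL, 1.46 ± 0.553 after OVA, 0.778 ± 0.507 after SIINFEKL and 2.70 ± 0.508 in Naive cells, and all antigen groups overlapped. Zeb2 fell by 1.40 ± 0.40 after ERY1-OVA (adjusted p = 0.013), by 1.37 ± 0.40 after TER119-SIINFEKL (adjusted p = 0.013) and by 1.95 ± 0.45 after SIINFEKL (adjusted p = 0.011), and the difference after OVA was -0.93 ± 0.40 (adjusted p = 0.068). The ERY1-OVA call was lost without Naive replicate 1 (-1.26, adjusted p = 0.050), the TER119-SIINFEKL call without TER119-SIINFEKL replicate 2 (-1.08, adjusted p = 0.057) and the SIINFEKL call without SIINFEKL replicate 1 (-1.23, adjusted p = 0.20). With 1 RPKM added before the logarithm the Zeb2 changes were -0.87, -0.83 and -1.08 and were still called. The OVA difference passed in 7 alternatives, with values from -1.22 to -0.60.

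Natural killer cell transcripts varied between libraries as well. Of 6 markers, 5 had a row, and they summed to 11.1 to 13.5 RPKM after ERY1-OVA, 7.92 to 32.4 after TER119-SIINFEKL, 10.9 to 28.3 after OVA, 8.33 to 12.5 after SIINFEKL and 17.7 to 32.4 in Naive cells. OVA replicate 1 and TER119-SIINFEKL replicate 1 were the highest libraries of their groups in these markers, in the MHC class II sum and in Zeb2. The marker sum and Zeb2 ranked the libraries alike within OVA, within TER119-SIINFEKL and within SIINFEKL. SIINFEKL replicate 2 was above replicate 1 in both (12.5 against 8.33 RPKM, and 1.14 against 0.420 RPKM). In Naive and ERY1-OVA the order differed. Naive replicate 3 had the highest marker sum of its group (32.4 RPKM) and the lowest Zeb2 (2.28 RPKM). ERY1-OVA replicate 2 had the lowest marker sum of its group (11.1 RPKM) and the highest Zeb2 (1.18 RPKM). The part of these markers in the Zeb2 result was not tested. Without OVA replicate 1 and TER119-SIINFEKL replicate 1 the OVA difference of Zeb2 passed the threshold.

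Most of the ZEB and TGF-beta genes were called lower after ERY1-OVA, TER119-SIINFEKL and OVA. Of 11 tested, Zeb2 among them, 0 were higher and 8 lower after ERY1-OVA, 0 and 9 after TER119-SIINFEKL, and 0 and 7 after OVA, with medians of -0.58, -0.83 and -0.79. Smad7, the inhibitory SMAD, fell by 1.50 ± 0.19 after ERY1-OVA (adjusted p = 5.2e-05), by 2.41 ± 0.19 after TER119-SIINFEKL (adjusted p = 9e-07) and by 1.33 ± 0.19 after OVA (adjusted p = 0.00011). The SMAD corepressor gene Ski fell by 1.19 ± 0.17 after ERY1-OVA and by 1.52 ± 0.17 after TER119-SIINFEKL. Tgfbr2, a chain of the TGF-beta receptor, fell by 0.88 ± 0.14, 1.20 ± 0.14 and 1.02 ± 0.14 after ERY1-OVA, TER119-SIINFEKL and OVA. Zeb1, the paralog of Zeb2 that is linked to memory cells, fell by 0.59 after ERY1-OVA (adjusted p = 0.015), by 0.74 after TER119-SIINFEKL (adjusted p = 0.0034) and by 0.80 after OVA (adjusted p = 0.0021), and its difference after SIINFEKL was -0.30 (adjusted p = 0.31).

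Bhlhe40 (chr6:108660629-108666925, plus strand), a helix-loop-helix repressor that receptor signals induce and that supports cytokine output, was the most variable of the 10, with a pooled SD within groups of 1.00 log2 units (99.7th percentile). It had 3.66, 6.03 and 29.8 RPKM after ERY1-OVA, 6.36, 17.1 and 22.6 RPKM after TER119-SIINFEKL, 4.22, 13.6 and 10.5 RPKM after OVA, 3.58 and 3.54 RPKM after SIINFEKL, and 7.23, 5.62 and 12.0 RPKM in Naive cells. The SIINFEKL libraries were below all others, and the remaining groups overlapped. Mean levels were 13.2 ± 14.4 RPKM after ERY1-OVA, 15.3 ± 8.24 after TER119-SIINFEKL, 9.45 ± 4.80 after OVA, 3.56 ± 0.0316 after SIINFEKL and 8.28 ± 3.32 in Naive cells. No difference from Naive was called: 0.14 ± 0.67 after ERY1-OVA, 0.78 ± 0.67 after TER119-SIINFEKL, 0.10 ± 0.67 after OVA and -1.14 ± 0.75 after SIINFEKL (adjusted p = 0.32).

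Immediate-early genes, which receptor signals and cell handling both induce, varied between libraries too. Fos had 33.3, 51.2 and 184 RPKM after ERY1-OVA, 27.3, 32.9 and 140 RPKM after TER119-SIINFEKL, 48.0, 220 and 166 RPKM after OVA, 33.7 and 225 RPKM after SIINFEKL, and 188, 132 and 418 RPKM in Naive cells. Nr4a1 had 20.7, 31.9 and 66.1 RPKM after ERY1-OVA, 27.8, 44.4 and 53.0 RPKM after TER119-SIINFEKL, 14.2, 35.6 and 22.7 RPKM after OVA, 31.9 and 27.6 RPKM after SIINFEKL, and 20.1, 24.0 and 39.7 RPKM in Naive cells. ERY1-OVA replicate 3, TER119-SIINFEKL replicate 3, OVA replicate 2 and Naive replicate 3 were the highest libraries of their groups in Bhlhe40, Fos and Nr4a1 alike. Nr4a1 was picked as the gene nearest to Bhlhe40 over these same libraries, and Fos was named after its values were seen. Their shared order with Bhlhe40 is therefore not independent support. The SIINFEKL pair was nearly equal in Bhlhe40 while it differed widely in Fos. The part of these genes in the Bhlhe40 values was not tested. Of 8 helix-loop-helix and partner genes tested, Bhlhe40 among them, 1 was higher and 2 lower after ERY1-OVA, 2 and 2 after TER119-SIINFEKL, and 0 and 3 after OVA. The clock gene Arntl fell by 0.50 ± 0.12 after ERY1-OVA (adjusted p = 0.0059), by 0.64 ± 0.12 after TER119-SIINFEKL (adjusted p = 0.00085) and by 0.89 ± 0.12 after OVA (adjusted p = 6.8e-05). Mxd4, a MAX partner that opposes MYC, rose by 0.63 ± 0.15 after ERY1-OVA (adjusted p = 0.0042) and by 0.77 ± 0.15 after TER119-SIINFEKL (adjusted p = 0.00084). In a fit of only the groups compared, the count after ERY1-OVA was 5.

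Maf (chr8:115682942-115707794, minus strand), a basic leucine zipper factor linked to interleukin-10 and to exhausted CD8+ T cells, was near the low end of the table, at the 2.9th percentile. It had 0.855, 2.13 and 0.698 RPKM after ERY1-OVA, 2.32, 2.43 and 1.04 RPKM after TER119-SIINFEKL, 0.698, 1.03 and 0.808 RPKM after OVA, 3.72 and 0.610 RPKM after SIINFEKL, and 1.37, 3.76 and 1.81 RPKM in Naive cells. OVA was the only group that lay wholly below Naive, and the SIINFEKL libraries spanned nearly the whole range. The mean levels were 1.23 ± 0.783 RPKM after ERY1-OVA, 1.93 ± 0.774 after TER119-SIINFEKL, 0.844 ± 0.167 after OVA, 2.16 ± 2.20 after SIINFEKL and 2.31 ± 1.27 in Naive cells. Ranked from low to high, as OVA, ERY1-OVA, TER119-SIINFEKL, SIINFEKL and Naive, each neighbour overlapped the next. No difference was called: -0.96 ± 0.61 after ERY1-OVA, -0.23 ± 0.61 after TER119-SIINFEKL, -1.34 ± 0.61 after OVA (adjusted p = 0.086) and -0.48 ± 0.68 after SIINFEKL. After OVA, Maf passed in 4 alternatives (quantile normalization, only the groups compared, and without SIINFEKL replicate 1 or 2), with values from -1.79 to -0.78 over all alternatives.

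Of 6 MAF and BACH family genes tested, Maf among them, 0 were higher and 4 lower after ERY1-OVA, 0 and 5 after TER119-SIINFEKL, and 0 and 3 after OVA. Bach1, a heme-sensing repressor, fell by 1.21 ± 0.20 after ERY1-OVA (adjusted p = 0.00033), by 1.42 ± 0.20 after TER119-SIINFEKL (adjusted p = 6.7e-05) and by 1.23 ± 0.20 after OVA (adjusted p = 0.00024). Mafk, a small MAF partner, fell by 0.76 ± 0.18 after ERY1-OVA (adjusted p = 0.0042), by 0.91 ± 0.18 after TER119-SIINFEKL (adjusted p = 0.00098) and by 0.82 ± 0.18 after OVA (adjusted p = 0.0021). The count after ERY1-OVA was 2 without ERY1-OVA replicate 2 or 3, TER119-SIINFEKL replicate 3, OVA replicate 2 or 3, or any single Naive library.

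Whether joining antigen to erythrocytes changed these factors was asked first for protein and then for peptide. Between ERY1-OVA and OVA, 0 of the 10 were called by limma, beside 1.06% of all genes, and 2 had an unadjusted p under 0.05. These were Tbx21 (-0.63 ± 0.22, adjusted p = 0.16), whose groups did not overlap, and Id2 (-0.64 ± 0.24, adjusted p = 0.19), whose groups did. The 95% intervals of the difference were -1.10 to -0.16 for Tbx21 and -1.15 to -0.13 for Id2. Irf8 was lower in every ERY1-OVA library than in every OVA library, with a difference of -0.48 ± 0.25 (95% interval -1.01 to 0.05, adjusted p = 0.35). The share of all genes without overlap was not computed, so the separation of Tbx21 and Irf8 adds no support. For Irf4 the difference was 0.29 ± 0.26 (-0.27 to 0.85), and for Batf -0.09 ± 0.16 (-0.44 to 0.26).

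Between TER119-SIINFEKL and SIINFEKL, 3 of the 10 were called, all higher, beside 37.4% of all genes called and 20.4% called higher. Irf8 rose 4.17-fold (2.06 ± 0.28, adjusted p = 0.00012) and Irf4 rose 3.29-fold (1.72 ± 0.29, adjusted p = 0.00058). Without SIINFEKL replicate 1 or replicate 2 the log2 values were 1.75 and 2.37 for Irf8 and 2.14 and 1.30 for Irf4, all called. Batf rose by 0.56 ± 0.18 (adjusted p = 0.027), a call that was lost with quantile normalization (0.42, adjusted p = 0.061), without TER119-SIINFEKL replicate 1 (0.48, adjusted p = 0.079), without SIINFEKL replicate 1 (0.65, adjusted p = 0.051) and without SIINFEKL replicate 2 (0.48, adjusted p = 0.14). With the length and GC correction the Batf value was 0.37 and still called (adjusted p = 0.04). Bhlhe40 (1.92 ± 0.75, adjusted p = 0.059) and Runx3 (-0.47 ± 0.18, adjusted p = 0.051) were not called, and passed in 7 and 6 alternatives. Neither overlapped between the groups, but the share of all genes without overlap was not computed, so this adds no support. The count was 5 without ERY1-OVA replicate 1 or replicate 3. Blocked by replicate number, Bhlhe40 was called (1.49, adjusted p = 0.039) and the count was 4.

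**Figure D4:**
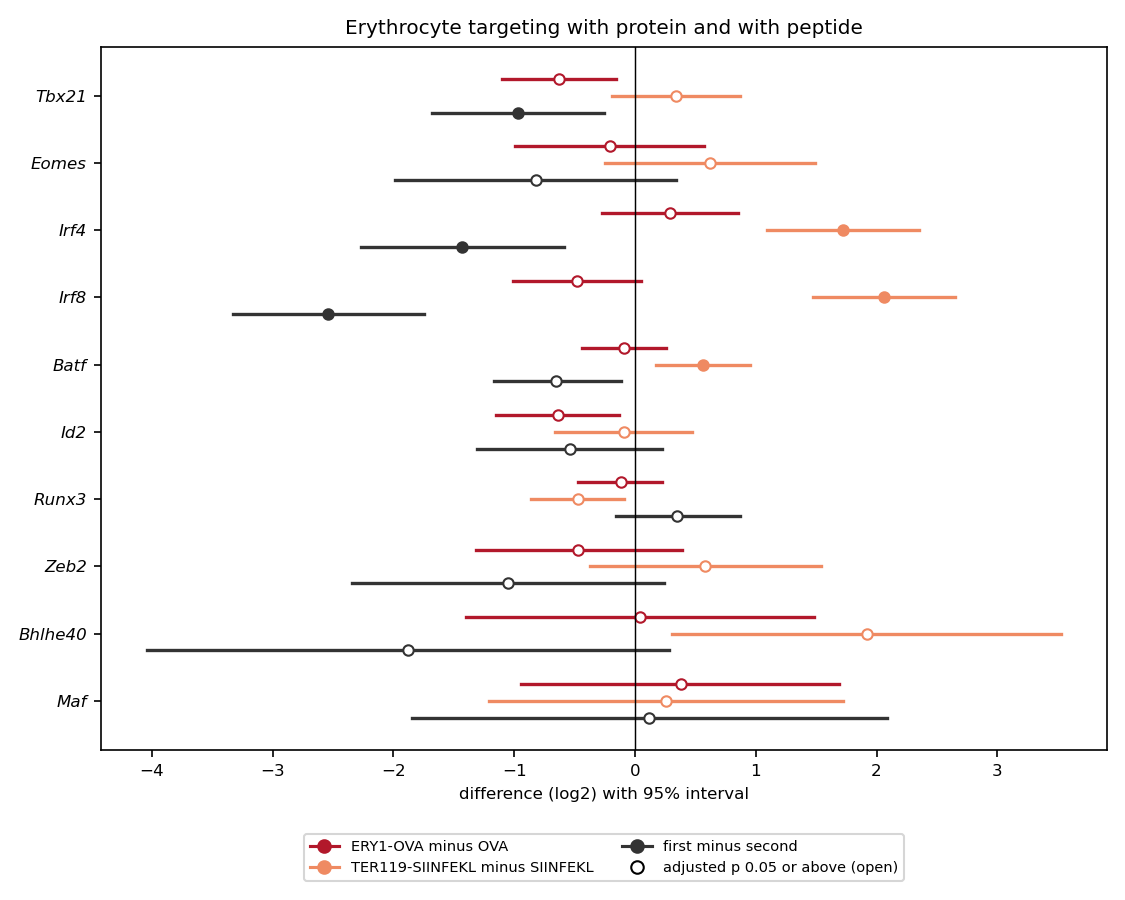
Log2 difference of each factor between targeted and free antigen, for protein (ERY1-OVA minus OVA) and for peptide (TER119-SIINFEKL minus SIINFEKL), with bars for the 95% interval and filled points for called differences. Irf8 lies at -0.48 for protein and 2.06 for peptide, and Irf4 at 0.29 and 1.72.

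The difference between these 2 targeting effects was tested directly as an interaction, protein minus peptide. It was called for 3 of the 10, all negative, beside 37.7% of all genes called and 20.6% called negative. For Irf8 it was -2.54 ± 0.37 (adjusted p = 0.00023), for Irf4 -1.43 ± 0.39 (adjusted p = 0.012) and for Tbx21 -0.97 ± 0.33 (adjusted p = 0.032). Irf8 kept its call in all 25 alternatives, with values from -2.85 to -2.23. The Irf4 call was lost without SIINFEKL replicate 2 (-1.01, adjusted p = 0.065). The Tbx21 call was lost with quantile normalization (-0.89, adjusted p = 0.051), without OVA replicate 1 and TER119-SIINFEKL replicate 1 together (-0.85, adjusted p = 0.086), and without ERY1-OVA replicate 3 (-0.74), TER119-SIINFEKL replicate 2 (-0.89), OVA replicate 1 (-0.82) or SIINFEKL replicate 2 (-0.62, adjusted p = 0.17). Batf just missed the threshold (-0.65 ± 0.24, adjusted p = 0.051), and passed with 1 RPKM added or when ERY1-OVA replicate 2 or OVA replicate 2 was left out. Carrier and antigen form change together between the protein and the peptide arms, so their parts cannot be told apart.

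Averaged over both antigen forms, targeted against free antigen, 2 of the 10 were called, both higher, beside 7.94% of all genes called and 5.64% called higher. Irf4 rose 2.01-fold (1.00 ± 0.20, adjusted p = 0.0081, with 1.21 and 0.80 without SIINFEKL replicate 1 or replicate 2) and Irf8 rose by 0.79 ± 0.18 (adjusted p = 0.020). The Irf8 call was lost without TER119-SIINFEKL replicate 3 (0.76, adjusted p = 0.051), OVA replicate 2 (0.76, adjusted p = 0.056) or SIINFEKL replicate 1 (0.63, adjusted p = 0.059), which left Irf4 alone. For Irf8 the averaged value joins a negative difference for protein and a positive one for peptide. For Irf4 it joins 0.29 ± 0.26 for protein, which was not called, and 1.72 ± 0.29 for peptide, which was called.

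The free antigens differed from each other in Irf8, Tbx21, Irf4 and Batf. Between OVA and SIINFEKL 4 of the 10 were called, all higher, beside 42.2% of all genes called and 22.4% called higher. Irf8 rose 4.32-fold (2.11 ± 0.28, adjusted p = 6.5e-05), Tbx21 rose by 1.11 ± 0.25 (adjusted p = 0.0029), Irf4 by 0.99 ± 0.29 (adjusted p = 0.015) and Batf by 0.54 ± 0.18 (adjusted p = 0.028). Without SIINFEKL replicate 1 or replicate 2 the values were 1.80 and 2.42 for Irf8 and 1.46 and 0.75 for Tbx21, all called. The Irf4 call was lost without SIINFEKL replicate 2 (0.57, adjusted p = 0.18). The Batf call was lost in 7 alternatives: quantile normalization (0.37), only the groups compared (0.54, adjusted p = 0.085), the length and GC correction (0.30), and without OVA replicate 1 (0.35, also with TER119-SIINFEKL replicate 1 left out), SIINFEKL replicate 1 (0.63) or SIINFEKL replicate 2 (0.46). Zeb2 was 1.02 ± 0.45 higher in log2 value (adjusted p = 0.082), and passed without SIINFEKL replicate 2 (1.73) and with the length and GC correction (1.41).

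Of the T-box targets, Gzmb, which encodes the protease granzyme B, was also called in these comparisons. It rose by 3.36 ± 0.45 in OVA against SIINFEKL and by 1.63 in TER119-SIINFEKL against SIINFEKL, and the interaction of the targeting effect was -3.39 ± 0.60. The value of 1.63 was 0.94 without SIINFEKL replicate 1 and lost its call.

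Between the targeted groups, ERY1-OVA and TER119-SIINFEKL, 0 of the 10 were called by limma, beside 0.562% of all genes, and 0 had an unadjusted p under 0.05. The differences were -0.44 ± 0.26 for Irf4 (95% interval -1.0 to 0.12), -0.43 ± 0.25 for Irf8 (-0.96 to 0.10), -0.10 ± 0.16 for Batf (-0.45 to 0.25), 0.13 ± 0.22 for Tbx21 (-0.34 to 0.61) and -0.00 ± 0.24 for Id2 (-0.51 to 0.51). The 2 groups overlapped in these 5 genes.

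Other factors known to steer CD8+ differentiation moved in both directions. Of 20 tested, Eomes among them, 2 were higher and 4 lower after ERY1-OVA, 4 higher and 5 lower after TER119-SIINFEKL, and 0 higher and 6 lower after OVA. Klf2, the quiescence and homing factor of naive T cells, fell by 1.44 ± 0.14 after ERY1-OVA (adjusted p = 5.8e-06), by 1.92 ± 0.14 after TER119-SIINFEKL (adjusted p = 5.6e-07), by 1.03 ± 0.14 after OVA (adjusted p = 8e-05) and by 0.99 ± 0.16 after SIINFEKL (adjusted p = 0.0015). It was lower in targeted than in free antigen groups by 0.67 ± 0.11 on the log2 scale (-0.67, adjusted p = 0.0029). Ikzf2, which encodes Helios, rose by 2.33 ± 0.28 after ERY1-OVA (adjusted p = 2.8e-05), by 2.18 ± 0.28 after TER119-SIINFEKL (adjusted p = 3.5e-05) and by 2.08 ± 0.31 after SIINFEKL (adjusted p = 0.00092), or by 1.36 without SIINFEKL replicate 1. Against OVA, Ikzf2 rose by 1.62 ± 0.28 after ERY1-OVA (adjusted p = 0.03), a call lost in 8 of 25 alternatives, each of which left out at least 1 library. Lef1, a partner of TCF1 in naive cells, fell by 0.88 after ERY1-OVA, by 1.16 after TER119-SIINFEKL and by 0.97 after OVA. The count after ERY1-OVA was 10 in a fit of only the groups compared.

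The SIINFEKL group rests on 2 libraries that differ, and its list counts moved with each. These counts are to be read against the 15.9% of all genes called after SIINFEKL (7.58% higher and 8.34% lower). Genes tested numbered 20 for the T-box list, 11 for ZEB and TGF-beta, 18 for IRF and BATF partners and 21 for upstream signals. They numbered 4 for Id and E proteins, 8 for helix-loop-helix, 8 for RUNX, 6 for MAF and BACH and 20 for other factors. Of the T-box targets 1 was higher and 8 lower than Naive, and the number called was 3 without SIINFEKL replicate 1, 2 without Naive replicate 1 and 4 without Naive replicate 2 or 3. Of the ZEB and TGF-beta genes 3 were called, 0 without SIINFEKL replicate 1 and 7 without SIINFEKL replicate 2. Of the IRF family and BATF partners 0 were called by limma (4 had an unadjusted p under 0.05), with 0 to 2 over the alternatives. Of the upstream signals 6 were called, with 2 to 8 over the alternatives. The number called was 2 of the Id and E protein genes, 2 of the helix-loop-helix genes, 1 of the RUNX genes and 1 of the MAF and BACH genes, and each of these was 0 without SIINFEKL replicate 1. Of the other differentiation factors 5 were called, 3 without SIINFEKL replicate 1 and 8 without replicate 2. Il2ra, the interleukin-2 receptor alpha chain, had 0.0739 and 0.0855 RPKM after SIINFEKL, so near 0 that its log2 change of -4.24 ± 0.45 became -1.23 with 1 RPKM added.

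To see which genes ran most like each factor, the log2 level minus the gene's own Naive mean was compared over the 14 libraries, and the root mean square (RMS) difference ranked all genes. Among the closest to Irf4 were Anxa2 and Kdelc2 (RMS 0.43 and 0.46 log2 units). The closest to Irf8 were Brca2, E2f1 and Kif23 (0.37, 0.39 and 0.41), and to Batf Pmvk, Rbm3 and Dera (0.19, 0.21 and 0.21). Sytl2 was closest to Eomes (0.25), Tsfm to Tbx21 (0.26), Slc35c1 to Runx3 (0.12), Gng12 to Id2 (0.29), Klra9 to Zeb2 (0.29) and Sox13 to Maf (0.31). Bhlhe40 had no gene nearer than Nr4a1 at 0.66. Among the 10 factors themselves Id2 and Zeb2 were the closest pair (0.52), Tbx21 and Eomes differed by 0.61, Irf4 and Irf8 by 0.97, and Irf4 and Zeb2 were the farthest apart (4.02).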

How the data were processed

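Poly(A) RNA was sequenced from 14 samples of sorted OT-I cells with a stranded kit, per the labels' protocols. The authors deposited 1 table of log2 RPKM for 10106 genes. The submitters' processing notes list STAR 2.4.2, edgeR and bcl2fastq 2.17.1.14, beside GRCm38 and mm10, with no role or order. The counter, gene lengths, prior count and scaling between libraries are not given in the sources used here. The values, 4.3% of them negative, were read as logarithms to base 2.

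Genes with a mean of at least 1 RPKM were kept (9793, with 313 removed). The 5 group means were fitted in limma 3.58.1 (R 4.3.3) with its trend option, on 9 residual degrees of freedom and 4.6 from the prior. Each p-value was two-sided and adjusted by Benjamini-Hochberg over all tested genes of its comparison, and one under 0.05 was called. The comparisons numbered 10: the 4 antigen groups against Naive, 4 pairs of antigen groups, targeted against free antigen, and the interaction of targeting with antigen form. Groups come from the sample labels.

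The members and lists were chosen with earlier results of these data known. All 10 members are described, and of each list up to 3 called genes with the smallest adjusted p per comparison could be named. Fos, Zeb1 and the E protein genes fall outside this rule and were named after their values were seen. Genes like a member were ranked by RMS difference over 14 libraries, and the first 3 could be named. Gene positions come from GENCODE on GRCm38, matched by identifier for 10027 genes. Promoter windows of 300 bases come from RefSeq on GRCm38.p6.

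As alternatives, the values were quantile normalized, rescaled by median of ratios, given a pseudocount of 0.1 or 1 RPKM, or corrected for length and GC (9716 genes). The filter was dropped or set to a mean of 3 RPKM, the trend was dropped, a replicate block was added, or only the groups compared were fitted. Each library was left out in turn, and also TER119-SIINFEKL replicate 1 together with OVA replicate 1. The procedure was tested on simulated data. Python 3.11.15 with matplotlib 3.10.9, numpy 2.4.6 and pandas 2.3.3 made the tables and figures. A few genes that the naming rule selects are not reported here.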

Additional observations from a re-analysis of the deposited data

Results flagged for a closer look

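The effect of joining antigen to erythrocytes differed between protein and peptide for 3 of the 10 factors, by the interaction term in limma, beside 37.7% of all genes called and 20.6% called negative. The effect with protein minus that with peptide was -2.54 log2 units for Irf8 (adjusted p = 0.00023), from -0.48 for ERY1-OVA against OVA and 2.06 for TER119-SIINFEKL against SIINFEKL. It was -1.43 for Irf4 (adjusted p = 0.012), from 0.29 and 1.72. It was -0.97 for Tbx21 (adjusted p = 0.032), from -0.63 and 0.34, neither of which was called alone. The Irf4 call was lost without SIINFEKL replicate 2 (-1.01), and the Tbx21 call in several alternatives, among them without SIINFEKL replicate 2 (-0.62) and with quantile normalization (-0.89).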

How the results depend on the processing

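The tally here covers 58 results for single factors: all 31 that were called, and 27 chosen from those not called. Of the 31 called, 20 kept their call under every alternative run, 11 lost it under at least 1, and 0 reversed. Of the 27 not called, 13 passed under at least 1 alternative. As these 27 were chosen, that is not a rate for all uncalled results. The difference of Batf between ERY1-OVA and OVA turned to 0.10 without OVA replicate 1 and TER119-SIINFEKL replicate 1, and ranged from -0.22 to 0.10 when 1 library was left out. The difference of Batf between ERY1-OVA and TER119-SIINFEKL ranged from -0.23 to 0.03 when 1 library was left out. Neither was called.

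The number of factors called after OVA against Naive was 8 in a fit of only the groups compared. When 1 library was left out it was 4 to 7 after OVA and 2 to 5 after SIINFEKL against Naive, 2 to 5 for TER119-SIINFEKL against SIINFEKL, and 1 to 3 for targeted against free antigen. Over all alternatives the counts were 4 to 6 after ERY1-OVA and 5 to 7 after TER119-SIINFEKL against Naive, 3 to 5 for OVA against SIINFEKL, 2 to 4 for the interaction, and 0 in both comparisons where 0 were called. Over all genes, calls for ERY1-OVA against OVA numbered 104 and ran from 0 to 360, and calls for SIINFEKL against Naive numbered 1559 and ran from 363 to 2438. The cause of these changes was not tested. With quantile normalization the median log2 change of all genes after OVA against Naive was -0.10, against -0.04 as reported.

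Whether replicate numbers pair the samples could not be settled. Of 26 same-numbered pairs of libraries, 14 correlated over 0.1, with r from -0.443 to 0.665. Some differently numbered pairs correlated as well, such as ERY1-OVA replicate 2 with TER119-SIINFEKL replicate 1 (r = 0.573). With the replicate block the counts of factors called were as reported, except 4 in place of 3 for TER119-SIINFEKL against SIINFEKL, through Bhlhe40. Zeb2 and Maf could not be tested with the filter at a mean of 3 RPKM. Without counts, the precision of low values such as those of Zeb2 and Maf is unknown.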
